A study of Mus musculus with 9 samples.

Results

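The genes described here make, sense or break down prostaglandin E2, and 9 of them were read by symbol from the raw gene counts of MyC-CaP cells treated with ASPN. They were Pla2g4a, Ptgs1, Ptgs2, Ptges, Ptges2, Ptges3, Hpgd, Ptger2 and Ptger4, and they were chosen by name with the levels and fold changes of these same 9 libraries in view. Their levels and differences between times are therefore given as a description, without p-values. Of the 9 genes, 8 had a row among the 15384 genes of the count table, and the expression of Ptger2 was not analysed here. MyC-CaP is an established mouse prostate cancer line from a tumor driven by a MYC transgene in prostate epithelium, and ASPN (asporin) is a protein that stromal cells secrete. Cells were held without serum and calcium and then given 100 ng/mL recombinant mouse ASPN, and RNA was taken at 0, 12 and 24 hours with 3 libraries at each time. All 9 libraries, those of time 0 included, carry ASPN as their treatment label, and no library of cells kept 12 or 24 hours without ASPN was analysed here, so ASPN and hours in culture cannot be told apart. The labels call the libraries biological replicates of 1 cell line, plated as triplicate wells.

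Prostaglandins are short-lived lipids made on demand from arachidonic acid. Cytosolic phospholipase A2, the product of Pla2g4a, frees arachidonic acid from membranes, and the cyclooxygenases Ptgs1 (COX-1) and Ptgs2 (COX-2) turn it into prostaglandin H2. Ptgs1 is known as the steadily expressed form and Ptgs2 as the form that growth factors and inflammatory signals induce. Prostaglandin E synthases (the inducible membrane enzyme Ptges, and Ptges2 and Ptges3) convert prostaglandin H2 into prostaglandin E2, which acts through the EP2 and EP4 receptors (Ptger2 and Ptger4) to raise cAMP. Hpgd, 15-hydroxyprostaglandin dehydrogenase, starts its breakdown. In many epithelial tumors, prostate tumors included, Ptgs2 and prostaglandin E2 are studied for their part in growth, migration and inflammation. Only mRNA was measured here, not enzyme or prostaglandin.

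The largest difference among these genes was that of Ptgs2, the inducible cyclooxygenase. Per kilobase of exon its level passed that of Ptgs1 between 12 and 24 hours, and Ptgs1 was lower at each later time. The start regions of these 2 cyclooxygenase genes and of Ptges are printed because the cyclooxygenases hold this contrast and Ptges is the synthase known to act with Ptgs2. Each stretch runs 5′ to 3′ on the strand of its gene, from 200 bases before to 30 bases after the start of the transcript in RefSeq for mouse GRCm38.p6. Ptgs2 lies at chr1:150099831-150100060 on the plus strand, Ptgs1 at chr2:36230226-36230455 on the plus strand and Ptges at chr2:30903268-30903497 on the minus strand. Capitals mark matches to the motifs described after the sequences.
Ptgs2: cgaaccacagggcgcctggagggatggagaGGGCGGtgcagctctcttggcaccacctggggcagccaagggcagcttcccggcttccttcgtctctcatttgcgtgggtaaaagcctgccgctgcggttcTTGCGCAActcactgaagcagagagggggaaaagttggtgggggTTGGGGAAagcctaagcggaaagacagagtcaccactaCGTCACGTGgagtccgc
Ptgs1: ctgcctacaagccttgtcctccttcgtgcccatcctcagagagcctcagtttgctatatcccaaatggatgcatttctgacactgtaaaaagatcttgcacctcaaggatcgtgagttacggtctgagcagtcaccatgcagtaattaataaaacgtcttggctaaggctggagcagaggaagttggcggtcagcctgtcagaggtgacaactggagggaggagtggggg
Ptges: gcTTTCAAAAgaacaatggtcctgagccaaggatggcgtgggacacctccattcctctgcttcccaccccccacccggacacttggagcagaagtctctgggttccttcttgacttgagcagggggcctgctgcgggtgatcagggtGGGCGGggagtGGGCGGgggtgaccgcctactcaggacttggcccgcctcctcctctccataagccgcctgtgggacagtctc

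Windows of 250 bases before to 50 bases after each start were searched for 7 motifs, and all 9 genes had at least 1 such window (10 windows, of which Pla2g4a had 2). The TATA box was searched as TATAAA on the strand of the gene, and the cAMP response element core TGACG, the E-box CACGTG, the C/EBP motif TTNNGNAA, the AP-1 motif TGANTCA, the GC box GGGCGG and the NF-kB motif (given by name alone) on both strands. Of the 32851 promoter windows of the RefSeq table, 8.32% held the TATA box, 20.8% the cAMP response element core, 7.15% the E-box, 40.7% the C/EBP motif, 7.81% the AP-1 motif, 35.7% the GC box and 4.51% the NF-kB motif. The Ptgs2 window held 2 C/EBP matches, at -69 to -62 and at -25 to -18, a GC box at -170 to -165, and a TGACG match at 14 to 18 whose last bases overlapped an E-box at 17 to 22, counting the first base of the transcript as 1. The Ptgs1 window held none of the 7 motifs. The Ptges window held 2 GC boxes, at -53 and -42, and a C/EBP match at -198. GC content of the whole window was 59.3% for Ptgs2, 50.7% for Ptgs1 and 60% for Ptges, against a median of 52.7% over all windows. A match is a run of letters and not a shown binding site, and the absence of a match says only that these letters are not in the window. Positions are counted from the annotated start, and where transcription starts in these cells was not tested.

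**Figure D1:**
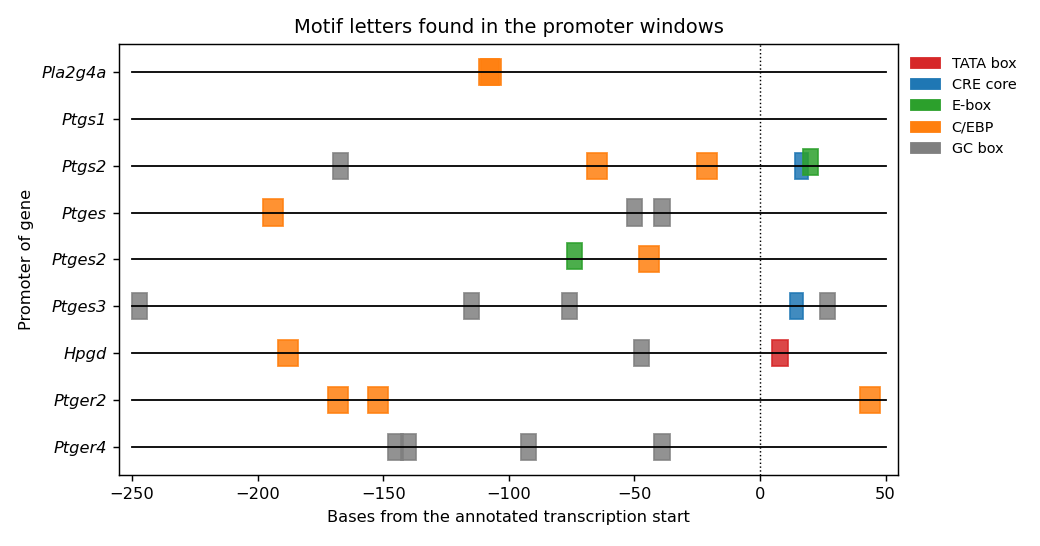
Matches to the motif letters in the promoter windows of the 9 genes, plotted by distance in bases from the annotated transcription start (x axis, one line per gene; boxes are matches, colored by motif; the second Pla2g4a window held no match and is not drawn). Ptgs2 carries a TGACG match and an E-box that overlap just after its annotated start, and the line of Ptgs1 is empty.

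Gene positions are those of GRCm38. Ptgs2 (ENSMUSG00000032487.8) lies on chromosome 1 from 150100031 to 150108227 on the plus strand, and Pla2g4a (ENSMUSG00000056220.14) on the same chromosome from 149829618 to 149961290 on the minus strand. The 2 genes, the first and second enzyme of the pathway, are 138.7 kb apart with 0 protein-coding genes annotated between them. Ptgs1 (ENSMUSG00000047250.13), Ptges (ENSMUSG00000050737.13) and Ptges2 (ENSMUSG00000026820.5) lie on chromosome 2, Ptges3 (ENSMUSG00000071072.12) on chromosome 10, Hpgd (ENSMUSG00000031613.9) on chromosome 8 and Ptger4 (ENSMUSG00000039942.15) on chromosome 15. The 3′ UTR of Ptgs2 spans 2445 bases and holds 14 copies of the pentamer ATTTA, the core of AU-rich elements that are known to shorten the life of an mRNA. Over the 15139 genes with an annotated 3′ UTR the median was 1 copy, and 2.63% had at least as many as Ptgs2. Per length the 3′ UTR of Ptgs2 held 5.73 copies per kb, against a median of 1.36 over 3′ UTRs of at least 200 bases, of which 3.41% were at least as dense. The 3′ UTRs of Ptgs1 (921 bases) and Ptges (3106 bases) held 0 copies. That of Pla2g4a was denser than that of Ptgs2, with 4 copies in 443 bases (9.03 per kb), and those of Hpgd, Ptger4, Ptges3 and Ptges2 held 4.77, 4.06, 3.37 and 1.16 copies per kb.

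Libraries held 41881191 to 52993821 counted reads, and 3 counts, used as the floor of detection, corresponded to between 0.055 and 0.0735 CPM (read counts relative to scaled library size). Library sizes were scaled with TMM factors, which lay at 1.04 to 1.07 in the earlier libraries and 0.898 to 0.911 in those of 24 hours. A gene was called when its Benjamini-Hochberg adjusted p over all tested genes was at most 0.05 and its fold change at least 1.5, by edgeR's quasi-likelihood test on the 6 libraries of a comparison. Against time 0, 1.60% of 11410 tested genes were called at 12 hours (1.5% higher and 0.0964% lower) and 28.8% of 11444 at 24 hours (12.0% higher and 16.8% lower). Between 12 and 24 hours 25.7% of 11394 were called, 10.4% higher and 15.3% lower at 24 hours. With scaling by total counts alone the median log2 fold change of all genes at 24 hours became -0.24 against time 0 and -0.22 against 12 hours, and the called genes were 698 higher and 3008 lower against time 0, in place of 1374 and 1924, and 484 higher and 2830 lower against 12 hours, in place of 1184 and 1740. Of the luminal epithelial markers reported here, Hoxb13 was at 67.5 to 104 CPM in every library and Krt8 at 24.8 to 42.3 CPM, while Epcam never passed 3 counts and Cdh1 never passed 10. Leukocyte markers in the table summed to at most 0.083 CPM and endothelial ones to at most 0.183 CPM. The fibroblast markers in the table, nearly all Pdgfra, summed to 12.9 to 14.1 CPM at time 0 and 9.12 to 10.3 CPM at 24 hours. Dcn, a fibroblast marker at 7 to 29 counts, went the other way and was called higher at 24 hours (log2 fold change 1.20), though its libraries overlapped. Basal markers summed to 0.0857 to 0.165 CPM at time 0 and 0.539 to 0.907 CPM at 24 hours. What part these shifts had in any result below was not tested.

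Ptgs2 mRNA was higher at 12 hours than at time 0 and much higher at 24 hours. Its level was 40.8, 42.5 and 43.2 CPM in the 3 time 0 libraries, 66.2, 67.8 and 65.3 CPM at 12 hours, and 428, 462 and 428 CPM at 24 hours. No 2 times overlapped, and the libraries within a time lay close together (42.2 ± 1.2, 66.4 ± 1.3 and 439 ± 19 CPM, mean ± SD, n = 3 each). The log2 fold change was 0.66 ± 0.038 (SE) at 12 hours and 3.38 ± 0.049 at 24 hours against time 0, which is 10.4-fold. From 12 to 24 hours it was 2.74 ± 0.041, or 6.69-fold. Ptgs2 was called higher in all 3 comparisons, also under each alternative scaling, filter and test and without any single library. By log2 fold change it ranked 212 from the top of 11410 genes at 12 hours and 22 from the top of 11444 at 24 hours, and in the step from 12 to 24 hours it ranked 6 of 11394. In the 12-hour comparison 1 of the 7 tested genes was called, Ptgs2, beside 1.60% of all tested genes.

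**Figure D2:**
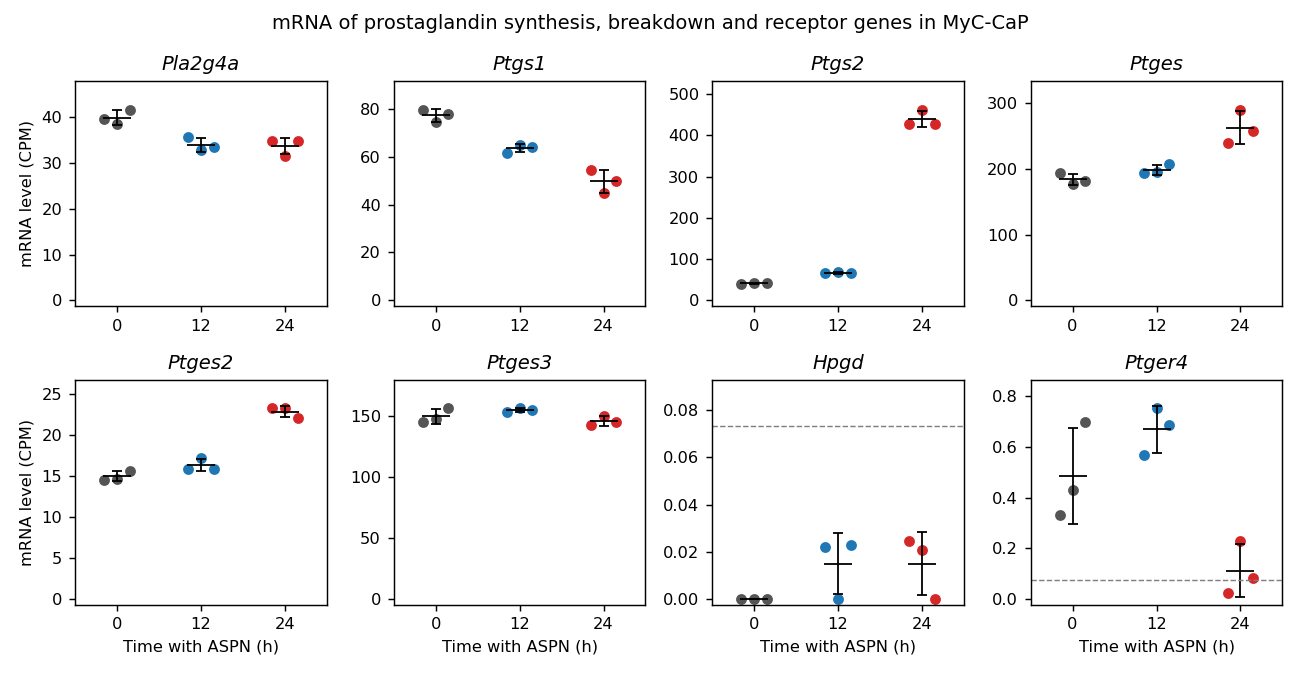
mRNA level in CPM (y axis, linear) of the 8 genes in the table at 0, 12 and 24 hours with ASPN (x axis), with a point for each library and a bar for mean ± SD over 3 libraries; the dashed line in the Hpgd and Ptger4 panels is the highest floor of 3 counts in any library, 0.0735 CPM. Ptgs2 stays under 70 CPM until 12 hours and is above 420 CPM at 24 hours, while Ptgs1 steps down and every Hpgd library lies under the floor.

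Ptgs1, the steadily expressed cyclooxygenase, was lower at each later time. It was at 79.6, 74.3 and 77.8 CPM at time 0, 61.6, 65.0 and 64.2 CPM at 12 hours, and 54.3, 44.8 and 50 CPM at 24 hours. The 3 times did not overlap (77.3 ± 2.7, 63.6 ± 1.8 and 49.7 ± 4.7 CPM), and replicate 2 was the lowest of the 24-hour libraries. The log2 fold change was -0.28 ± 0.038 at 12 hours, under the 1.5-fold limit, and -0.64 ± 0.063 at 24 hours, where Ptgs1 was called lower. That call lay near the limit and was lost without 24-hour replicate 2 (-0.57) and when counts were corrected for length and GC content of the transcripts (-0.56). Exons of Ptgs1 overlap Gm43621, an unconfirmed transcript on the opposite strand, and whether counting used strand is not given in the sources used here.

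Compared per kilobase of exon, so that the 2 genes could be set beside each other, the order of the cyclooxygenase mRNAs changed between 12 and 24 hours. At time 0 the level of Ptgs1 was 19.9 ± 0.70 CPM per kb and that of Ptgs2 9.21 ± 0.27 CPM per kb, and Ptgs2 made up 30.3%, 32.6% and 32.0% of their sum. At 12 hours the levels were 16.4 ± 0.45 and 14.5 ± 0.28 CPM per kb, and the Ptgs2 share was 47.7%, 47.0% and 46.3%. At 24 hours they were 12.8 ± 1.2 and 95.9 ± 4.2 CPM per kb, and the share was 87.0%, 89.7% and 87.9%. The ratio of Ptgs2 to Ptgs1 was 0.463 ± 0.026, 0.886 ± 0.025 and 7.55 ± 1.1 at the 3 times. The summed level of both genes was 29.1 ± 0.61 CPM per kb at time 0 and 30.9 ± 0.61 at 12 hours, and the libraries of these times did not overlap, at 28.4 to 29.5 against 30.3 to 31.5. At 24 hours the sum was 109 ± 3.2 CPM per kb. With the length of the longest transcript in place of all exons the mean share of Ptgs2 was 26.0%, 40.2% and 85%, in the same order.

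**Figure D3:**
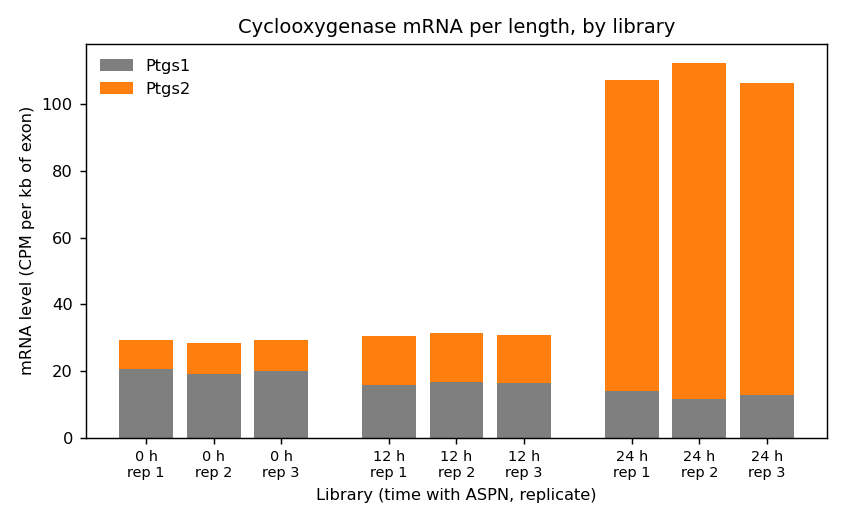
Summed Ptgs1 and Ptgs2 mRNA in CPM per kb of exon (y axis from 0) in each of the 9 libraries (x axis, by time and replicate), with the part of each gene stacked. The bars are of near equal height at 0 and 12 hours while the Ptgs2 part grows, and the 24-hour bars reach 106 to 112 CPM per kb, mostly Ptgs2.

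Pla2g4a, which frees the substrate, was slightly lower after time 0. Its level was 39.6, 38.4 and 41.6 CPM at time 0, 35.6, 32.7 and 33.5 CPM at 12 hours, and 34.7, 31.6 and 34.7 CPM at 24 hours. Both later times lay under time 0 without overlap and overlapped each other. The log2 fold changes of -0.23 ± 0.048 at 12 hours and -0.24 ± 0.057 at 24 hours were under the 1.5-fold limit, and between 12 and 24 hours the difference was 0.01 ± 0.057. The neighbors Pla2g4a and Ptgs2 on chromosome 1 thus had log2 fold changes of -0.24 and 3.38 at 24 hours.

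Among the prostaglandin E synthases, Ptges and Ptges2 were higher at 24 hours and Ptges3 stayed within a narrow range. Ptges, the enzyme that is known to work together with Ptgs2, was at 193, 177 and 182 CPM at time 0, 193, 195 and 207 CPM at 12 hours, and 240, 290 and 258 CPM at 24 hours. Its 24-hour libraries were above all others, while the earlier times met at 193 CPM. The log2 fold change was 0.11 ± 0.039 at 12 hours and 0.51 ± 0.061 at 24 hours, not called for its size, though with the length and GC correction it was 0.63 and called. Ptges2 was at 14.6, 14.7 and 15.7 CPM, then 15.9, 17.2 and 15.9 CPM, then 23.3, 23.3 and 22.1 CPM. Its 3 times did not overlap. Ptges2 was called higher at 24 hours (log2 fold change 0.61 ± 0.066, against 0.13 ± 0.067 at 12 hours), and this call was lost with scaling by total counts (0.39). Ptges3, also known as the HSP90 co-chaperone p23, was at 145, 147 and 156 CPM, then 153, 156 and 155 CPM, then 142, 150 and 145 CPM, with log2 fold changes of 0.05 at 12 hours and -0.03 at 24 hours. Per kilobase, Ptges3 made up 57.5% ± 1.6 of the mRNA of the 3 synthases at time 0 and 48.0% ± 1.5 at 24 hours, Ptges 40.0% ± 1.6 and 48.7% ± 1.7, and Ptges2 2.53% ± 0.066 and 3.31% ± 0.21.

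Receptor and breakdown genes were at or near the limit of detection. Ptger4, the EP4 receptor, had 16, 20 and 38 counts at time 0, 26, 35 and 30 counts at 12 hours, and 1, 11 and 4 counts at 24 hours. In CPM these were 0.332 to 0.696, 0.568 to 0.752 and 0.0245 to 0.228, so the 24-hour libraries lay under all others while time 0 and 12 hours overlapped. The log2 fold change at 24 hours was -2.05 ± 0.57 against time 0 and -2.47 ± 0.50 against 12 hours, and Ptger4 was called lower in both. It passed the filter on low counts through the counts of the earlier times, and it was also called lower in both comparisons with no filter (-2.06 and -2.48). Against time 0 the value was -3.06 without 24-hour replicate 2, -1.63 without 24-hour replicate 1, and called in each case. Exons of Ptger4 overlap the coding gene Ttc33 on the opposite strand, which was at 18.7 to 20.3 CPM at 0 and 12 hours and 11 to 14.2 CPM at 24 hours, and the part of Ttc33 reads in the Ptger4 counts was not tested. Hpgd, the breakdown enzyme, had 0 counts in every time 0 library, 1, 0 and 1 at 12 hours and 1, 1 and 0 at 24 hours. These counts lie under the floor of 3 counts per library, so Hpgd was not tested and no difference in it was detectable at this depth.

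**Figure D4:**
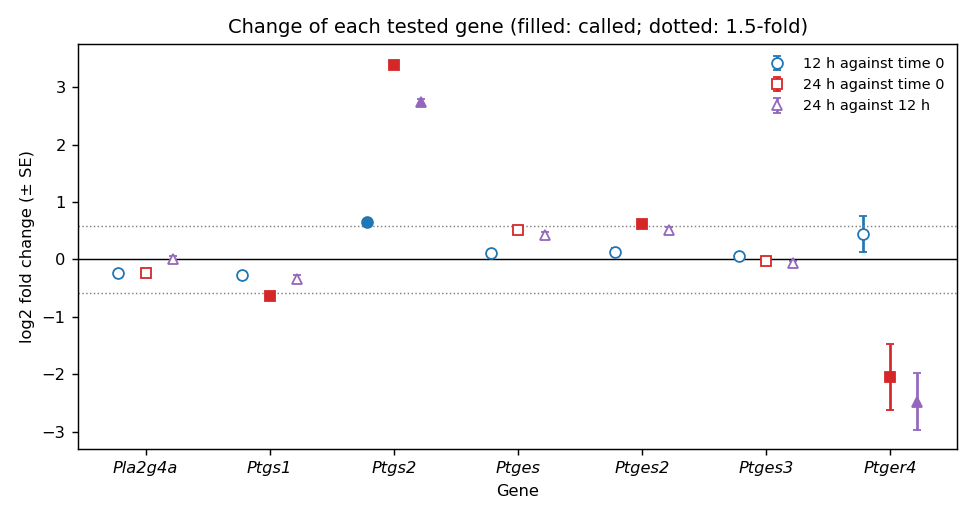
Log2 fold change ± SE (y axis) of the 7 tested genes (x axis) for 12 hours against time 0 (circles), 24 hours against time 0 (squares) and 24 against 12 hours (triangles); filled symbols are called and dotted lines mark 1.5-fold. Ptgs2 lies at 0.66, 3.38 and 2.74, and the other 6 genes between -2.47 and 0.61, with Ptger4 the lowest.

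Of the 7 tested genes, 1 was called higher and 0 lower at 12 hours, beside 1.60% of all tested genes called in either direction. At 24 hours Ptgs2 and Ptges2 were called higher and Ptgs1 and Ptger4 lower, which is 4 of 7 beside 28.8% of all genes, and between 12 and 24 hours Ptgs2 was called higher and Ptger4 lower, beside 25.7%. The libraries of the 2 groups did not overlap for 4, 6 and 6 of the 7 genes in the 12-hour, 24-hour and 24-against-12-hour comparisons, and for 27.1%, 73.9% and 73.9% of all tested genes. The genes were chosen with these comparisons in view, so nothing is read from these shares. The median log2 fold change of the 7 genes was 0.11, -0.03 and 0.01, beside -0.005, -0.02 and 0.004 over all tested genes. The 24-hour comparisons share their 24-hour libraries, and both comparisons against time 0 share the time 0 libraries.

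Levels per kilobase put the tested genes in an order that changed at 24 hours. At time 0 the order was Ptges3 (67.3 ± 2.7 CPM per kb), Ptges (46.8 ± 2.0), Ptgs1, Ptgs2, Pla2g4a (6.24 ± 0.25), Ptges2 (2.97 ± 0.12) and Ptger4 (0.073 ± 0.028), and no 2 neighbors in it overlapped. At 24 hours Ptgs2 came first, above Ptges (66.8 ± 6.4 CPM per kb) and Ptges3 (65.7 ± 1.8), whose libraries overlapped. Ptgs1, Pla2g4a (5.27 ± 0.28 CPM per kb), Ptges2 (4.53 ± 0.14) and Ptger4 (0.0169 ± 0.016) followed.

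The genes whose pattern was most like that of each gene were found by Pearson correlation of log2 CPM across the 9 libraries, over 10400 genes with a mean of at least 1 CPM. The 9 points fall into 3 times, so high values are common and stand as a description. Closest to Ptgs2 were Hsp90aa1 (r = 0.9989), an HSP90 chaperone that was at 781, 842 and 1202 CPM at the 3 times, Tmsb4x (r = 0.9988), an actin-binding thymosin at 136, 161 and 352 CPM, and Cald1 (r = 0.9987), caldesmon, at 188, 226 and 478 CPM. Their fold differences between times were smaller than those of Ptgs2. Closest to Ptgs1 were Sesn3 (r = 0.9907), Adh7 (0.989) and Mtus1 (0.9874). Closest to Ptges were Tmem43 (0.9942), Trib3 (0.993) and Proser2 (0.9926), and closest to Ptges2 were Psma5 (0.9944), a proteasome subunit, Tmem208 (0.9933) and Gm7072 (0.9931). The best matches of Pla2g4a (Lrrc28, 0.9476, Atg3, 0.9282 and Txndc15, 0.9185) and of Ptges3 (Zfp446, 0.8978, Abcd3, 0.8953 and Sod2, 0.8912) were looser.

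The rest of the prostaglandin pathway was read from a list of 39 further genes set by role, of which 29 were in the table. At 12 hours 15 were tested, and 1 was called, lower, beside 0.0964% of all genes called lower. At 24 hours 14 were tested, with 1 called higher and 2 lower, beside 12.0% and 16.8% of all genes. Between 12 and 24 hours 2 of 15 were called higher and 2 lower, beside 10.4% and 15.3%. Their median log2 fold change was -0.06 at 12 hours, -0.17 at 24 hours and -0.08 from 12 to 24 hours. Adjusted p-values in the next paragraphs come from the same edgeR quasi-likelihood fit, adjusted by Benjamini-Hochberg over all tested genes, on 3 libraries per time.

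Of the phospholipases and their regulators, Anxa1 was called at 24 hours against time 0 and Plaa between 12 and 24 hours. Anxa1, annexin A1, known as an inhibitor of phospholipase A2, was at 2356 to 2401 CPM at time 0, 2534 to 2669 CPM at 12 hours and 3523 to 3726 CPM at 24 hours. It rose at 24 hours by a log2 fold change of 0.60 ± 0.041 (adjusted p = 2.53e-08), just over 1.5-fold, and was not called without 24-hour replicate 1, with scaling by total counts or with the length and GC correction. Plaa, phospholipase A2 activating protein, was at 95.1 to 103 CPM at time 0, 92.5 to 95.6 CPM at 12 hours and 142 to 152 CPM at 24 hours. It rose from 12 to 24 hours by 0.66 (adjusted p = 6.54e-09), a call that was lost with scaling by total counts and with the length and GC correction, and against time 0 its 1.49-fold difference was not called. That difference was called with DESeq2, with RLE or upper-quartile factors, and without time 0 replicate 3 or 24-hour replicate 2 or 3. The other phospholipases that were tested, Pla2g4b, Pla2g6 and Pla2g12a, were not called in any comparison.

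Of the terminal synthases other than those of prostaglandin E2, Akr1c18, Akr1b3, Cbr1 and Ptgds were tested in all comparisons and Tbxas1 between 12 and 24 hours, and Akr1c18 was called lower in each comparison. Akr1c18, a steroid dehydrogenase that also acts as a prostaglandin F synthase, fell from 1.84 to 2.38 CPM at time 0 to 1.14 to 1.53 CPM at 12 hours and 0.332 to 0.613 CPM at 24 hours. The log2 fold change was -0.67 ± 0.18 at 12 hours (adjusted p = 0.0251) and -2.36 ± 0.27 at 24 hours (adjusted p = 3.95e-06), with no overlap between times. The 12-hour call was lost without time 0 replicate 3, without 12-hour replicate 1 or 2, and with all 9 libraries in one fit. Akr1c18 belongs to a multigene family whose near copies may share reads. Akr1b3, aldose reductase and a second prostaglandin F synthase, was at 324 to 354 CPM at time 0 and 248 to 267 CPM at 24 hours, a log2 fold change of -0.37 that did not reach 1.5-fold, though it was called lower with scaling by total counts. Cbr1, a carbonyl reductase, was at 1.81 to 2.78 CPM over all libraries and was not called in any comparison. Ptgds, a prostaglandin D synthase, had 21 to 72 counts in each library and rose from 12 to 24 hours by 0.95 (adjusted p = 0.0101), a call that was lost without 24-hour replicate 3. The thromboxane synthase Tbxas1 had 1 to 17 counts and was not called between 12 and 24 hours (log2 fold change 1.24, adjusted p = 0.079). The prostacyclin synthase Ptgis had 0 to 7 counts and the other prostaglandin D synthase Hpgds 0 to 4.

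The exporter of prostaglandins fell while the importer did not pass the limit. Abcc4 (MRP4), which carries prostaglandin E2 out of cells, was at 86.3, 79.9 and 83.4 CPM at time 0, 78.2, 82.6 and 76.6 CPM at 12 hours, and 43.5, 44.9 and 47.2 CPM at 24 hours. It fell at 24 hours by a log2 fold change of -0.88 ± 0.049 (adjusted p = 3.77e-09), and all 24-hour libraries lay under all others. Slco2a1, the prostaglandin transporter that takes prostaglandins up, was at 612 to 659 CPM at time 0 and 508 to 587 CPM at 24 hours (log2 fold change -0.22, adjusted p = 0.00252, under 1.5-fold). The reductases Ptgr1, Ptgr2 and Zadh2, which act after Hpgd in breakdown, were not called in any comparison. Of 7 other prostanoid receptors 3 were in the table. Ptger1, the EP1 receptor, had 8, 25 and 22 counts at time 0, 11, 7 and 6 at 12 hours and 3, 6 and 6 at 24 hours, and was tested only at 12 hours (log2 fold change -1.05, adjusted p = 0.222). Ptgdr2 had 0 to 6 counts and Tbxa2r 0 or 1.

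**Figure D5:**
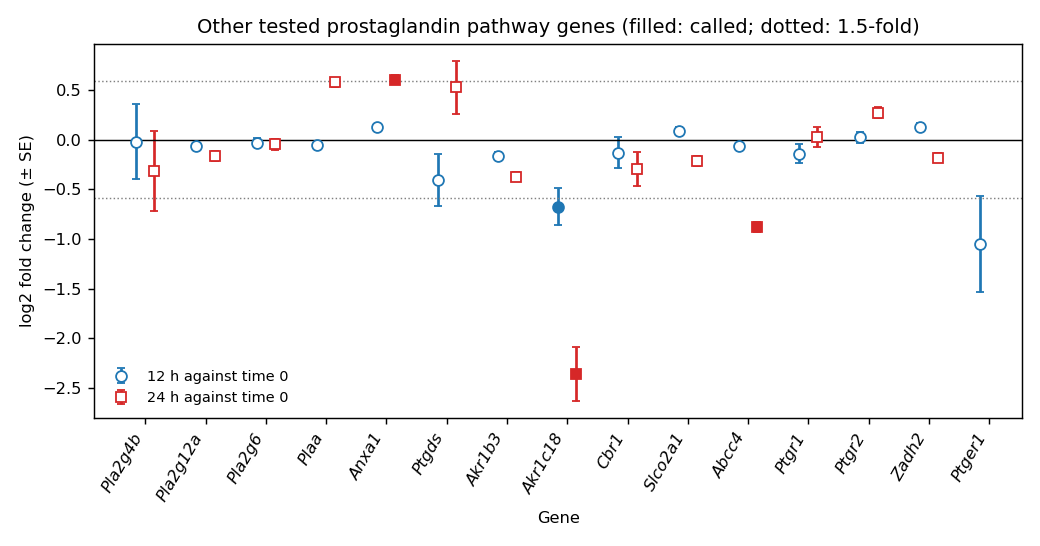
Log2 fold change ± SE (y axis) against time 0 at 12 hours (circles) and 24 hours (squares) of the 15 other pathway genes tested in at least one of these comparisons (x axis); filled symbols are called and dotted lines mark 1.5-fold. Akr1c18 is the lowest at 24 hours (-2.36), followed by Abcc4 (-0.88), and Anxa1 (0.60) is the called gene above 0.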

How the data were processed

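RNA-Seq of 9 MyC-CaP libraries was used. The deposited values are raw gene counts for 15384 genes; the authors trimmed paired-end reads with Cutadapt 4.5, aligned them to GRCm38.p6 with STAR 2.7.11a and counted them with featureCounts 2.0.2. Tools were edgeR 4.0.16, DESeq2 1.42.0 and limma 3.58.1, under R 4.3.3. Per comparison, genes passing filterByExpr were scaled by TMM, and edgeR's quasi-likelihood F-test was run with no block and Benjamini-Hochberg adjustment. On simulated counts with 200 genes changed 2-fold among 11372 genes (24 hours against time 0), 91% were recovered, with 1 false call. The 200 changes were balanced up and down, while in the data 28.8% of tested genes were called, more lower than higher. The error rate under such a broad shift was not tested. Exon lengths, UTRs and overlaps came from GENCODE M21 (99.9% of genes matched by identifier), and promoters from RefSeq.

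The genes and lists were chosen with earlier results of these data known. Named genes were the 9 genes, further pathway genes that were tested or that were called under another setting, and the terminal synthases and prostanoid receptors by counts. To these were added the 3 genes most like each gene with a mean of at least 1 CPM. Up to 4 called genes of each other list were named, with the exceptions given at the end. Within a time, pairs of libraries had a chi-square per degree of freedom of 3.48 to 18.2, above sampling noise, so none was a duplicate. Floors cover counting error only, and p-values measure the spread between wells of 1 cell line. Some luminal markers are not reported here.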

Additional observations from a re-analysis of the deposited data

How the results depend on the processing

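Leaving out single libraries, other scalings, filters, DESeq2, limma-voom and a length and GC correction kept the direction and the call of Ptgs2 in each comparison. Calling by adjusted p alone gave 3 of the 7 genes at 12 hours (1 with the fold limit), 5 between 12 and 24 hours (2 with it), and 4, 9 and 9 further pathway genes at 12 hours, at 24 hours and between them (1, 3 and 4 with it). Under that rule 10.3%, 70.9% and 71.3% of all tested genes were called in the 3 comparisons. With at least 10 counts in every library Ptger4 left the test, and 1 of the genes was called between 12 and 24 hours. For the further pathway genes, fitting all 9 libraries together gave 0 calls at 12 hours and 5 at 24 hours, and DESeq2 and no filter on low counts gave 7 each at 24 hours, where both added Tbxas1, Ptger1 and Pla2g3, DESeq2 also Plaa and the unfiltered fit also Pla2g4e, which had 265 counts in 24-hour replicate 1 and 0 in every other library. Leaving out one library gave 0 to 1 calls at 12 hours, with 0 without time 0 replicate 3 or 12-hour replicate 1 or 2. At 24 hours it gave 4 to 6, with 5 without time 0 replicate 1 or 3 or 24-hour replicate 3 and 6 without 24-hour replicate 2.

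Signs changed only for differences near 0. Ptges3 at 12 hours was -7e-04 with the length and GC correction, and at 24 hours ran from -0.0547 to 0.0123 when one library was left out. Pla2g4a between 12 and 24 hours was -0.22 with total counts, -0.0108 with all 9 libraries in one fit, -0.0053 with the length and GC correction and -0.005 with that correction and the replicate block, and ran from -0.0216 to 0.051 without single libraries. The cause of these changes was not tested. With the length and GC correction Ptges2 was also called between 12 and 24 hours (0.75). The longest-transcript lengths and scaling without the 13 mitochondrial genes were added after the data were seen.

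Over all tested genes, libraries of equal number did not deviate together (correlations -0.0974 to 0.0558). A shared effect on only a part of the genes cannot be seen this way. With the replicate block 1, 4 and 2 of the 7 genes were called, as without it, and 1, 3 and 4 further pathway genes. Ptger4, Ptger1, Tbxas1 and Hpgd had too few counts for small differences to be seen.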

Other observations

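Neighboring branches of arachidonic acid metabolism and the pathway after the EP2 and EP4 receptors were read from lists by role. Adjusted p-values come from the edgeR quasi-likelihood fit, adjusted by Benjamini-Hochberg over all tested genes. These lists were read with TMM scaling alone. With total counts the median log2 fold change of all genes at 24 hours against time 0 was -0.24. Whether calls such as those of Lta4h and Gnas hold under that scaling was not tested. Of 12 genes of the lipoxygenase branch, part of which makes leukotrienes, 8 were in the table and 4 were tested. Of these 4, 1 rose and 1 fell at 24 hours, beside 12.0% and 16.8% of all tested genes. Alox5 had 4 counts in 24-hour replicate 3 and 0 in every other library, and Ltc4s had 0 to 4 counts, so neither was tested. At 24 hours Lta4h, leukotriene A4 hydrolase, rose from 68.7 to 76.5 CPM at time 0 to 108 to 116 CPM (log2 fold change 0.61, adjusted p = 1.49e-07). Aloxe3, an epidermal-type lipoxygenase, fell from 2.03 to 2.94 CPM to 1.08 to 1.54 CPM (-0.90, adjusted p = 0.0016). Of the 5 genes that return arachidonic acid to phospholipids, 4 were tested and 1 was called lower, beside the same 16.8%. This gene, Lpcat3, a lysophospholipid acyltransferase, fell at 24 hours from 46.8 to 49.1 CPM to 29.6 to 33.2 CPM (-0.59, adjusted p = 4.82e-07), just past the 1.5-fold limit.

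Of 18 tested genes of cAMP signaling after EP2 and EP4, 2 rose and 5 fell at 24 hours, beside 28.8% of all tested genes called then. Nr4a1 is a nuclear receptor gene that cAMP is known to induce. It rose from 8.19 to 10.2 CPM at time 0 to 17.7 to 21.9 CPM at 24 hours (1.12, adjusted p = 3.85e-07). Its relative Nr4a2 fell (-0.68), and Nr4a3, Crem and Pde4d of the same list were not called in any comparison. Gnas, the stimulatory G protein that couples these receptors to adenylyl cyclase, rose from 92.1 to 94.5 CPM to 144 to 158 CPM (0.72, adjusted p = 1.43e-08). Adcy9, an adenylyl cyclase, fell from 6.84 to 7.15 CPM to 3.19 to 4.0 CPM (-1.01, adjusted p = 5.43e-06), and Arrb1, beta-arrestin, from 357 to 417 CPM to 221 to 237 CPM (-0.75, adjusted p = 4.87e-08). Sik1 is a kinase gene that cAMP is known to induce. It was at 63.8 to 72.5 CPM at time 0, 88.1 to 94.8 CPM at 12 hours and 51.9 to 66.8 CPM at 24 hours. Its 12-hour difference (0.47) was under 1.5-fold. The named genes of these lists had been chosen by rule, except Alox5, Ltc4s, Nr4a2, Nr4a3, Crem, Pde4d and Sik1. Those were chosen after their values were seen, so no p-value is given for them.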
